A study of Mus musculus with 12 samples.

Results

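The 10 genes described here serve protein folding in the endoplasmic reticulum (ER), its quality control or its regulation: Hspa5, Hsp90b1, Pdia4, Sdf2l1, Creld2, Dnajb9, Dnajc3, Herpud1, Xbp1 and Edem1. For short they are called folding genes below, although Xbp1 encodes a transcription factor and Herpud1 and Edem1 act in degradation. The 10 genes were taken by name, through the RefSeq accession of each array probe, and all were found, by 18 of the 41174 distinct probes. They stand among 14627 genes with a symbol that were measured in whole mouse liver. RNA came from C57BL/6 mice on 12 Agilent arrays of 2 colours, and every value is a log2 ratio of the sample (Cy5) to a pooled liver reference (Cy3). Because each probe has its own affinity, a ratio is compared between samples of 1 gene and not between genes.

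The first group was MycF/F,ERT2-Cre mice, labelled ko, on a diet with 0.1% Wy-14643 for 2 days (n = 4). The second was MycF/F,ERT2-Cre mice on control diet (n = 4). The third was MycF/F mice, labelled wt, on the Wy-14643 diet (n = 3), and the last was MycF/F on control diet (n = 1), whose RNA is labelled as pooled liver. All 4 groups carry MycF/F, the notation for Myc alleles flanked by loxP sites, and ERT2-Cre denotes a recombinase that acts after tamoxifen. The labels give no promoter for it, and no tamoxifen dosing, sex or age. Livers of mice on the Wy-14643 diet are called drug-fed below. Nothing in the labels tells whether each sample is 1 animal, so p-values here reflect sample-to-sample spread, which can be technical. In whole liver, fewer cells of a type and less RNA per cell cannot be told apart.

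Hepatocytes secrete most plasma proteins, and these fold in the ER before export. Hspa5 (BiP), an ATP-driven chaperone, holds unfolded chains there with the help of J-domain partners, and disulfide isomerases join their cysteines. When unfolded chains build up, the sensors IRE1, ATF6 and PERK raise the transcription of chaperone and degradation genes, in part through the factor XBP1. Wy-14643 activates PPARα, a lipid-sensing receptor of hepatocytes that turns on genes of fatty acid oxidation.

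Promoters of several of these genes hold ER stress response elements, the sites through which ATF6 and XBP1 act, and these are shown as a description. The genes were named for their part in ER folding and stress, so the counts of elements are no independent test of the choice. The windows run from 250 bases before to 50 bases after the annotated start, 300 bases in all, in RefSeq GRCm38.p6, and all 10 genes had a window. The element ERSE, CCAAT and CCACG with 9 bases between them, read on both strands, was found in 4 of the 10 windows (Hspa5, Hsp90b1, Creld2 and Dnajc3) and in 39 of all 32851 windows (0.119%). The shorter ERSE-II, ATTGG and CCACG with 1 base between, was found in 1 of the 10 (Herpud1) and in 12 of all windows (0.0365%). Capitals mark the letters that the element fixes, and each sequence runs 5′ to 3′ on the gene's strand.
Hspa5, chr2:34772013-34772055, plus strand: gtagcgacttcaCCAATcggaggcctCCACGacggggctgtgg
Hsp90b1, chr10:86705521-86705563, minus strand: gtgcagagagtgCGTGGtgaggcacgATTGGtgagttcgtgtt
Creld2, chr15:88819508-88819550, plus strand: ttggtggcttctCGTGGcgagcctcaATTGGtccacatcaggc
Dnajc3, chr14:118937815-118937857, plus strand: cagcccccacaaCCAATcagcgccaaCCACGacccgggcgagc
Herpud1, chr8:94386365-94386399, plus strand: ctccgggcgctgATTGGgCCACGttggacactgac
The ERSE began 65 bases before the start in Hspa5 and 105 in Dnajc3, in the forward orientation, and 126 before it in Creld2, in the reverse one. Hsp90b1 held a pair, at 212 and at 107 bases, of which the nearer, reversed one is printed. In Herpud1 the ERSE-II began 52 bases before the start. The core TGACGTGG of the XBP1-bound element was in none of the 10 windows and in 0.676% of all. CACGTG, the E-box bound by MYC and other factors, was in 1 of the 10 (Dnajb9) and in 7.15% of all, and the PPAR element, AGGTCA repeated after 1 base, was in none of the 10 and in 0.0396% of all. All were read on both strands, and no printed element overlaps another of those searched. A match describes the letters and shows no binding, and a window without one says nothing of the factor.

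Probes of all 10 genes gave Cy5 signals well above background on all 12 arrays. Median Cy5 signal over background ran between 2.64 and 4.82 across arrays, and the number of arrays limits the precision. The Feature Extraction software marks spots as outliers in either colour, for uneven pixels or as population outliers. It marked 37 of the 120 readings of the 10 genes (30.8%), 24 of 40 on slide 1, 8 of 40 on slide 2 and 5 of 40 on slide 3. Bright spots were marked most often, 22.6% of the brightest 5% against 2.14% of the others, and 6 of the 10 probes are among the brightest. Leaving out marked spots is the primary setting below, and a fit with all spots is given beside it because Hspa5 keeps only 2 of its 12 readings without them. MycF/F,ERT2-Cre control replicate 1, on slide 1, lay below the other 3 controls of its group for 9 of the 10 genes, so results are also given without it. The log2 ratio of the targeted gene Myc was 1.02, -0.01, 0.05 and -0.07 in drug-fed MycF/F,ERT2-Cre, against 0.72, 0.41, 0.42 and 0.01 on control diet. It was 1.15, 0.62 and 0.51 in drug-fed MycF/F, against 0.58 in the MycF/F control. The readings of 1.02 and 1.15 came from marked spots and were left out of the tests. Neither difference between genotypes passed the test (-0.57 on Wy-14643, adjusted p = 0.281; -0.19 on control diet, adjusted p = 1; limma). Whether the Myc probe lies in the floxed part is not known here, so it checks nothing about the deletion.

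Wy-14643 feeding lowered most of the folding genes of MycF/F,ERT2-Cre livers. With marked spots left out, 7 of the 9 testable genes fell and 0 rose, with a median log2 fold change of -0.93. The fallen genes were Hspa5, Hsp90b1, Sdf2l1, Creld2, Dnajc3, Herpud1 and Xbp1. Over all 25166 genes tested, 7.44% were called lower and 8.94% higher (limma, adjusted p under 0.05 by Benjamini-Hochberg), with a median of 0.03. Here and below, all genes tested include probes that have no gene symbol. For Hspa5 only 1 array a group was left, so its error there comes wholly from the spread of other genes. With all spots, 7 of 10 fell and 0 rose (background 7.44% lower and 8.58% higher of 25270), with a median of -0.55. Pdia4 was then among them and Creld2 was not.

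**Figure D1:**
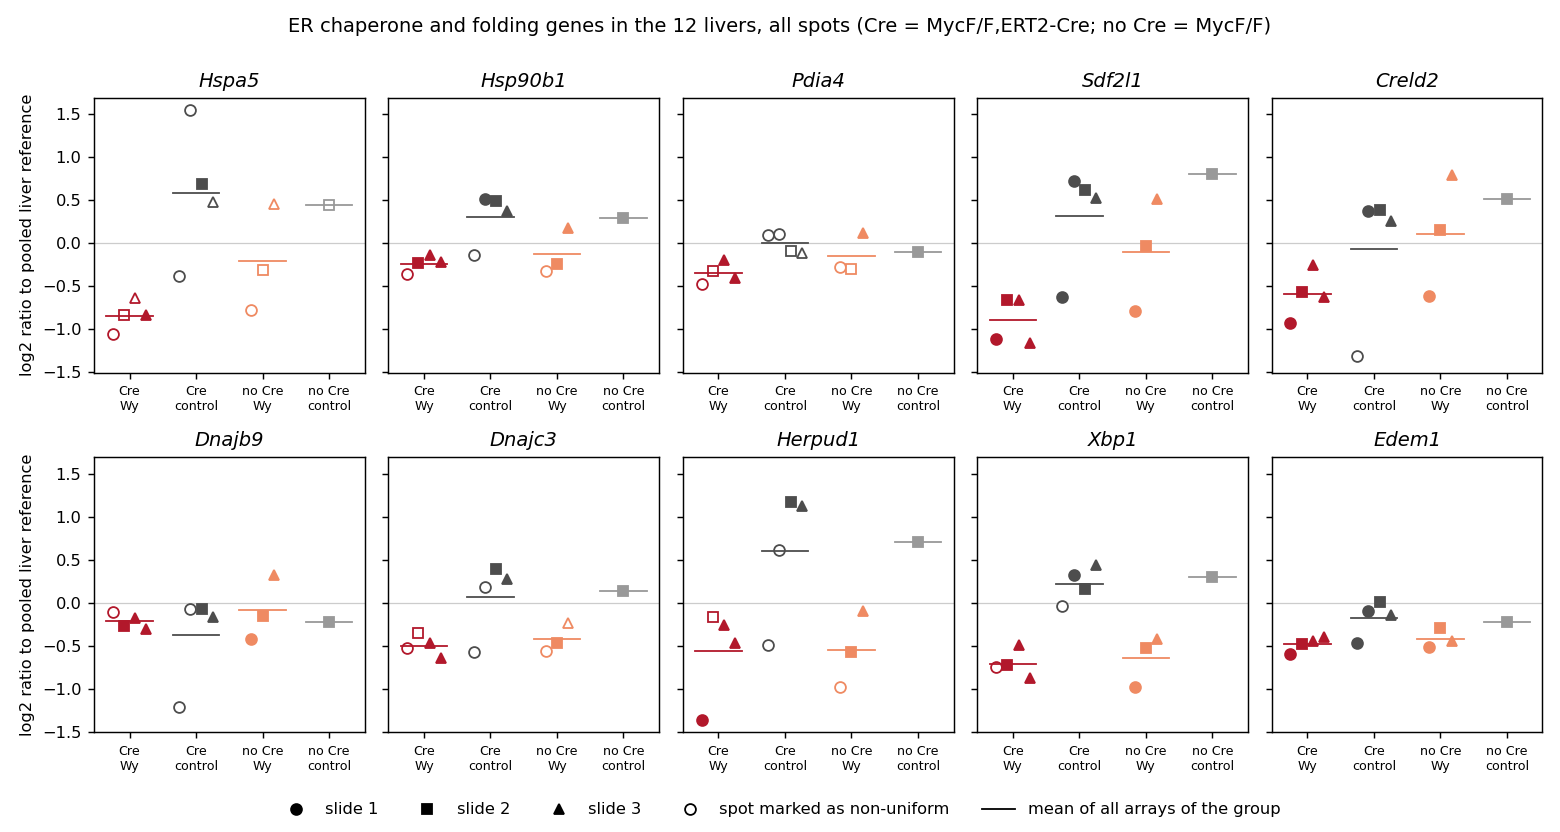
Log2 ratio to the pooled liver reference (vertical axis) for each of the 10 genes in each of the 4 groups (horizontal axis), 1 point per array with all spots kept. The point shape gives the slide, open points are readings from marked spots and bars are group means. For Xbp1, the MycF/F,ERT2-Cre arrays on Wy-14643 sit between -0.87 and -0.49, all below the control arrays of that genotype.

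Hspa5, the main ER chaperone of the Hsp70 family, had log2 ratios of -1.06, -0.83, -0.64 and -0.84 in drug-fed MycF/F,ERT2-Cre livers, against -0.38, 1.55, 0.69 and 0.48 on control diet, all spots kept. Readings from marked spots were all but the fourth treated and the third control array. Every treated array was below every control array, with the first control nearest to them. With all spots the log2 fold change was -1.43 (SE 0.35, 95% interval -2.18 to -0.67, adjusted p = 0.014), that is 2.69-fold lower. The difference of the single unmarked readings was -1.53. Without control replicate 1 the all-spot value was -1.75 (adjusted p = 0.00184), and within slides 1, 2 and 3 it was -1.64, -1.52 and -1.22.

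Hsp90b1 (GRP94), the Hsp90 of the ER lumen, measured -0.36, -0.23, -0.14 and -0.22 on Wy-14643, against -0.14, 0.51, 0.49 and 0.37 on control diet in the same genotype. The first array of each group came from a marked spot, and the highest treated and lowest control value nearly met. With those left out the log2 fold change was -0.65 (SE 0.12, adjusted p = 0.00455, n = 3 and 3), and with all spots it was -0.54 (adjusted p = 0.0273). With slide as a block it missed the threshold without marked spots (-0.65, adjusted p = 0.0526) and passed it with all spots (-0.61, adjusted p = 0.00988). A second Hsp90b1 probe changed by -0.49 (adjusted p = 0.0409 in a fit over all probes) with marked spots left out and by -0.34 (adjusted p = 0.233) with all spots.

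Sdf2l1 encodes a partner of the ER J-protein ERdj3 in an Hspa5-containing complex, and none of its spots was marked. Its log2 ratios were -1.11, -0.66, -0.66 and -1.16 in drug-fed MycF/F,ERT2-Cre livers, against -0.62, 0.72, 0.62 and 0.53 on control diet. The groups did not overlap, although control replicate 1 was just above the highest treated array. The gene averaged -0.90 ± 0.28 on Wy-14643 and 0.31 ± 0.63 on control diet (SD, n = 4 each), 2.32-fold lower (log2 -1.21, SE 0.31, adjusted p = 0.0185). Without control replicate 1 the log2 fold change was -1.52 (adjusted p = 0.00157).

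Of the J-domain partners of Hspa5, Dnajc3 fell and Dnajb9 did not pass the test, and the difference between them was not tested. Dnajc3 (P58IPK), which delivers clients to Hspa5, measured -0.53, -0.35, -0.47 and -0.64 on Wy-14643, against -0.57, 0.19, 0.39 and 0.28 on control diet. Marked spots gave the first pair of values in each group, and the groups overlapped only through control replicate 1. The log2 fold change was -0.90 without marked spots (SE 0.13, adjusted p = 0.00558, n = 2 and 2) and -0.57 with them (SE 0.18, adjusted p = 0.048). With marked spots left out, its 3 other probes changed by -0.63 (adjusted p = 0.0108), -0.49 (adjusted p = 0.0705) and -0.14 (adjusted p = 0.786). With all spots the same probes changed by -0.51 (adjusted p = 0.03), -0.54 (adjusted p = 0.0319) and -0.14 (adjusted p = 0.796). The last probe thus differs in size from the others in both settings.

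Dnajb9 (ERdj4), which helps to hand misfolded proteins to degradation, measured -0.11, -0.27, -0.18 and -0.30 on Wy-14643, against -1.21, -0.07, -0.07 and -0.17 on control diet. The treated value of -0.11, the control value of -1.21 and that of control replicate 2 came from marked spots, and the groups overlapped. Its log2 fold change of -0.13 (95% interval -0.56 to 0.29, adjusted p = 0.713) did not pass the test, and with all spots it was 0.16 (adjusted p = 0.726). Its 2 other probes gave -0.09 (adjusted p = 0.744) and 0.25 (adjusted p = 0.586).

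Pdia4 (ERp72) is a disulfide isomerase. It measured -0.48, -0.32, -0.20 and -0.40 on Wy-14643, against 0.10, 0.11, -0.09 and -0.11 on control diet, with the groups apart. All 4 control readings came from marked spots, so the gene could not be tested without them. With all spots it fell by 0.35 on the log2 scale (SE 0.11, adjusted p = 0.0446), and without control replicate 1 it did not pass the test (-0.32, adjusted p = 0.0996).

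Creld2, which has isomerase activity and is induced by ER stress, measured -0.93, -0.57, -0.25 and -0.62 on Wy-14643, against -1.31, 0.37, 0.39 and 0.26 on control diet. The marked reading of -1.31 in control replicate 1 was the lowest of all 12 arrays, and the other controls were above every treated array. The result turned on that reading: the log2 fold change was -0.93 (SE 0.26, adjusted p = 0.0312, n = 4 and 3) without it and -0.52 (SE 0.38, adjusted p = 0.421) with it.

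Herpud1, a membrane protein of the ER that organises the HRD1 ubiquitin ligase, measured -1.36, -0.17, -0.26 and -0.47 in drug-fed MycF/F,ERT2-Cre livers, against -0.49, 0.62, 1.17 and 1.13 on control diet. Marked spots gave the treated value of -0.17 and the first pair of control values, and only control replicate 1 overlapped with treated arrays. With marked spots left out the log2 fold change was -1.85 (SE 0.30, 95% interval -2.54 to -1.16, adjusted p = 0.00382, n = 3 and 2). With all spots it was -1.18 (SE 0.37, adjusted p = 0.0475), and the values within slides 1, 2 and 3 were -1.43, -1.35 and -1.5.

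Edem1, a lectin-like protein that sends misfolded glycoproteins to degradation, had no marked spot. It measured -0.60, -0.48, -0.45 and -0.40 on Wy-14643, against -0.47, -0.10, 0.01 and -0.14 on control diet. Only control replicate 1 overlapped with treated arrays. The difference of -0.31 (SE 0.10, adjusted p = 0.0668) did not pass the test, but with slide as a block it did (-0.34, adjusted p = 0.0236). Without control replicate 1 it was -0.41 (adjusted p = 0.00731), and a second probe fell by 0.58 (adjusted p = 0.00916) while the last changed by -0.21 (adjusted p = 0.595).

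Xbp1, the transcription factor that IRE1 activates by splicing its mRNA, measured -0.75, -0.72, -0.49 and -0.87 on Wy-14643, against -0.04, 0.33, 0.16 and 0.44 on control diet. The first array of each group came from a marked spot, and the groups were well apart. The gene averaged -0.71 ± 0.16 on Wy-14643 and 0.22 ± 0.21 on control diet (SD, n = 4 each, all spots), 1.90-fold lower (log2 -0.93, SE 0.14, adjusted p = 0.000678). Without marked spots the log2 fold change was -1.0 (SE 0.16, adjusted p = 0.00153). Whether its probe reads the spliced or the unspliced form was not determined.

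**Figure D2:**
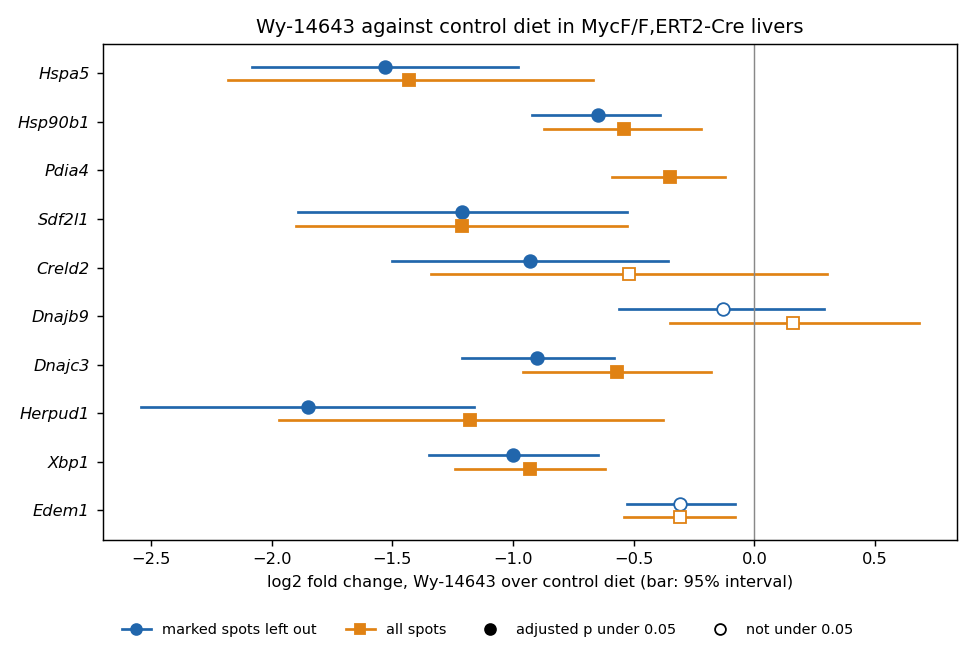
Log2 fold change of Wy-14643 over control diet in MycF/F,ERT2-Cre livers (horizontal axis) for the 10 genes, with 95% intervals, for marked spots left out (circles) and all spots (squares); filled points have an adjusted p under 0.05. Herpud1 lies at -1.85 and -1.18 in the 2 settings, Xbp1 at -1.0 and -0.93, and Dnajb9 on both sides of 0.

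With all spots the groups did not overlap, with Wy-14643 lower, for 5 of the 10 genes (8.74% of all genes tested). With marked spots left out they did not overlap for 8 of 9 (10.2%), but this count rests in part on missing readings and nothing is read from it: Hspa5 has 1 array against 1, which cannot overlap, Dnajc3 has 2 against 2, and Dnajb9 and Herpud1 have 3 against 2. Without control replicate 1, 8 genes fell in each setting: with marked spots left out Edem1 joined the 7, and with all spots Creld2 and Edem1 joined while Pdia4 dropped out. With marked spots left out that array held readings of Sdf2l1 and Edem1 alone. Its removal could therefore not change the fold changes of the other genes there. Without slide 1 as a whole, 8 genes also fell in each setting. With marked spots left out, the share of all genes tested that fell was 7.29% without control replicate 1 and 7.64% without slide 1. All 9 genes other than Dnajb9 had values below 0 within each of the 3 slides with all spots. The count was less stable to the loss of other arrays. With marked spots left out it was 4 without Wy-14643 replicate 4 of this genotype (Hsp90b1, Dnajc3, Herpud1 and Xbp1), where Hspa5 could no longer be tested and Sdf2l1 and Creld2 no longer passed. With all spots it was 2 (Hspa5 and Xbp1) without control replicate 2 or 4 or without Wy-14643 replicate 1 or 4, 3 without control replicate 3 or Wy-14643 replicate 2, and 4 without MycF/F Wy-14643 replicate 2. The share of all genes that fell was not counted in these fits, nor in all-spot fits without control replicate 1 or slide 1. A lower count can therefore not be told apart from fewer calls among all genes.

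The next comparison asks whether drug-fed livers differ by genotype, MycF/F,ERT2-Cre over MycF/F. None of the 10 genes passed the test in either setting. With marked spots left out, all 9 testable genes lay below 0, their log2 fold changes ran between -0.79 and -0.05, and 0 were called by limma, with 2 at an unadjusted p under 0.05. Of all 25171 genes tested, 0.0675% were called and 8.45% had an unadjusted p under 0.05. With all spots, all 10 lay below 0, 0 were called (background 0.135%) and 1 had an unadjusted p under 0.05 (background 7.78%). The median log2 fold change over all genes tested was 0.02 in each setting, and the share of them below 0 was not counted. The 10 genes vary together (median r of 0.74 after group means were taken out, all spots). Their signs are therefore not separate results, and nothing is read from the shared direction. The largest differences were those of Sdf2l1 and Creld2.

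Sdf2l1 measured -1.11, -0.66, -0.66 and -1.16 in drug-fed MycF/F,ERT2-Cre, against -0.79, -0.03 and 0.52 in drug-fed MycF/F. The log2 fold change was -0.79 (SE 0.34, 95% interval -1.53 to -0.06, adjusted p = 0.53). Creld2 measured -0.93, -0.57, -0.25 and -0.62 in MycF/F,ERT2-Cre, against -0.61, 0.15 and 0.79 in MycF/F, and its log2 fold change was -0.70 (SE 0.26, adjusted p = 0.435). In both genes the MycF/F array on slide 1 fell within the MycF/F,ERT2-Cre values and the MycF/F array on slide 3 was the highest. Within slides 1, 2 and 3 the genotype difference was -0.32, -0.63 and -1.43 for Sdf2l1 and -0.32, -0.72 and -1.22 for Creld2, below 0 on each. With slide as a block it was -0.84 (adjusted p = 0.3) for Sdf2l1 and -0.77 (adjusted p = 0.209) for Creld2. Without slide 1, 1 gene passed the test, Sdf2l1. That fit was chosen after seeing the data, and the share of all genes it called between genotypes was not counted. Nothing is read from this call.

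Hspa5 could not be tested without marked spots. With all spots it measured -1.06, -0.83, -0.64 and -0.84 in drug-fed MycF/F,ERT2-Cre, against -0.78, -0.31 and 0.46 in drug-fed MycF/F. The ranges overlapped through the MycF/F array on slide 1. The log2 fold change was -0.63 (SE 0.37, 95% interval -1.44 to 0.19, adjusted p = 0.804). Within slides 1, 2 and 3 it was -0.27, -0.52 and -1.2, and -0.68 with slide as a block (adjusted p = 0.599). Xbp1 differed by -0.05 with marked spots left out (95% interval -0.40 to 0.30, adjusted p = 0.987).

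In MycF/F livers the drug comparison rests on the lone pooled control array, which is assumed to vary like the arrays of the other groups. Xbp1 fell, with -0.98, -0.52 and -0.42 on Wy-14643, against 0.30 in the control. Each of the 3 treated arrays was below the control. Its log2 fold change was -0.93 (SE 0.22, 95% interval -1.43 to -0.44, adjusted p = 0.0323), and it was no longer called with the deposited log ratios, with a slide block, or without replicate 2 of either drug-fed group. It was the 1 gene called of 9 testable (3.23% of all 24915 genes tested were called lower), and 3 had an unadjusted p under 0.05 (background 17.5%). With all spots it was again the 1 gene called, of 10 (background 2.95% lower). There it passed with the slide block (adjusted p = 0.0297) and was lost without MycF/F Wy-14643 replicate 1 or without replicate 2 of either drug-fed group.

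Herpud1 measured -0.98, -0.57 and -0.09 in drug-fed MycF/F, against 0.71 in the control, with the first from a marked spot. All 3 were below the control. The log2 fold change was -1.03 without the marked spot (SE 0.40, adjusted p = 0.226) and -1.25 with it (adjusted p = 0.33). Sdf2l1 measured -0.79, -0.03 and 0.52, against 0.81 (log2 -0.91, SE 0.51, adjusted p = 0.419). The treated arrays of Hspa5, -0.78, -0.31 and 0.46, lay on both sides of the control at 0.44, and all 4 readings came from marked spots (log2 -0.65, adjusted p = 0.708). Dnajc3 differed by -0.61 (adjusted p = 0.137), Hsp90b1 by -0.33, Creld2 by -0.40 and Edem1 by -0.19, Dnajb9 by 0.14 and Pdia4 by 0.21, with adjusted p between 0.404 and 0.892 for the last 5.

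Neither the genotypes on control diet nor the drug effects in the 2 genotypes differed beyond the error in any of the 8 testable genes, and limma called 0 of all genes tested in either comparison. On control diet, MycF/F,ERT2-Cre over MycF/F ran between -0.50 (Sdf2l1) and 0.45 (Herpud1, -0.10 with all spots), and 0 of the 8 had an unadjusted p under 0.05 (1.77% of 24902 genes did). The drug effect in MycF/F,ERT2-Cre minus that in MycF/F ran between -0.82 for Herpud1 (95% interval -1.98 to 0.34; 0.07 with all spots) and -0.07 for Xbp1 (95% interval -0.67 to 0.54; 0.01 with all spots), and 0 of the 8 had an unadjusted p under 0.05 (2.17% of 24877 genes did). These intervals do not show that the effects were alike. Both comparisons use the lone control array.

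**Figure D3:**
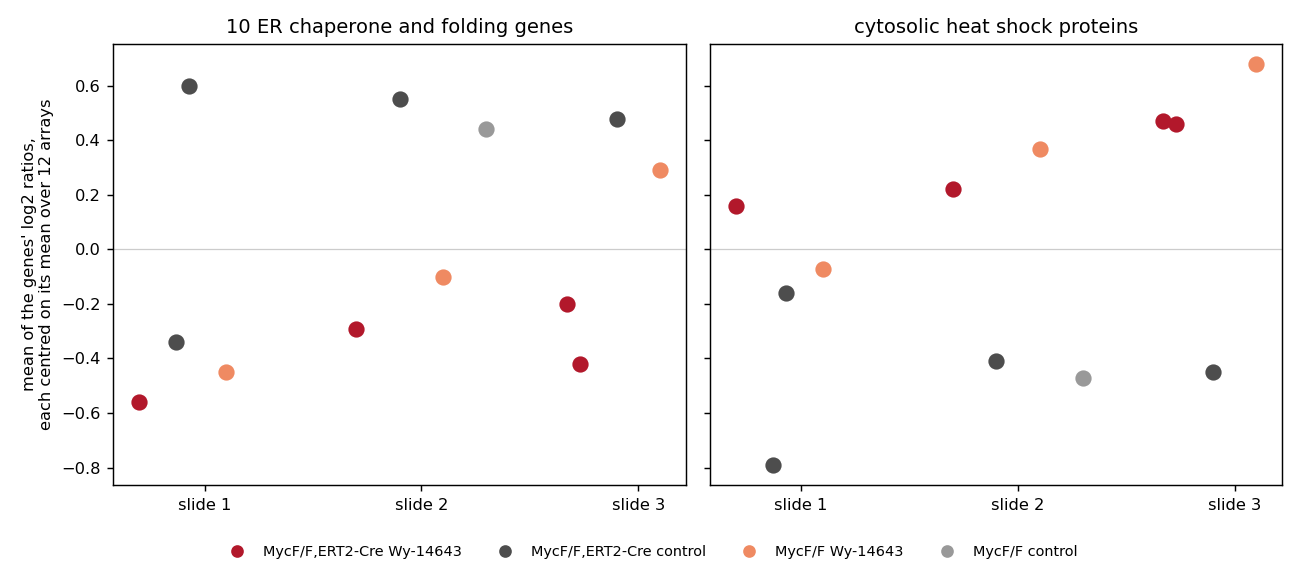
Mean over a gene list of the log2 ratios, each gene centred on its mean over the 12 arrays (vertical axis), by slide (horizontal axis) and group (colour), 1 point per array with all spots, for the 10 ER folding genes and for the cytosolic heat shock proteins. The mean of the 10 folding genes was -0.56, -0.29, -0.20 and -0.42 in drug-fed MycF/F,ERT2-Cre, against -0.34, 0.60, 0.55 and 0.48 on control diet.

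The mean over the 10 genes was -0.45, -0.10 and 0.29 in drug-fed MycF/F, against 0.44 in the MycF/F control, as the plot of list means by slide shows. In both drug-fed groups the array on slide 1 was the lowest. Across the 12 arrays the 45 pairs of genes had a median Pearson r of 0.77, between -0.06 (Dnajb9 with Pdia4) and 0.95 (Hspa5 with Hsp90b1). After group means were taken out the median was 0.74, between -0.23 and 0.97. The arrays share the reference RNA and the slides, and these coefficients are a description. By the same measure over 14623 genes, the 5 genes most like Hspa5 were Hyou1 (r = 0.976), Syvn1 (0.945), Erp29 (0.929), Slc35b1 (0.919) and Pdia6 (0.919). Those most like the mean of the 10 were Syvn1 (0.965), Pdia6 (0.959), Hyou1 (0.954), Mtmr14 (0.949) and Slc30a5 (0.948).

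Other genes of the secretory pathway were read from lists, again for Wy-14643 against control diet in MycF/F,ERT2-Cre with marked spots left out (background 7.44% lower and 8.94% higher). Of 16 measured other ER chaperones, 11 fell and 0 rose, with a median of -0.48. Manf, a secreted ER stress protein, fell by 1.74 on the log2 scale (SE 0.18, adjusted p = 0.000163), and Ppib, an ER prolyl isomerase, by 1.02 (adjusted p = 5.37e-05). Of 14 disulfide isomerases and oxidases, 7 fell and 1 rose (median -0.34), with Pdia6, an isomerase, at -1.17 (adjusted p = 0.000645) and Prdx4, an ER peroxidase, at -0.94 (adjusted p = 4.37e-05).

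Of 24 genes for translocation, signal peptide removal and glycosylation, 12 fell and 1 rose (median -0.45). Sec61a1, the channel subunit of the translocon, fell by 0.99 (adjusted p = 2.39e-05) and Ddost, of the oligosaccharyl transferase, by 0.81 (adjusted p = 5.61e-05). Of 20 genes for ER to Golgi transport, 7 fell and 2 rose (median -0.32). Lman1, a cargo receptor, fell by 0.93 (adjusted p = 0.000982), and Sar1b, a GTPase of COPII coats, rose by 0.86 (adjusted p = 4.66e-05). Of 19 genes for ER-associated degradation, 5 fell and 2 rose (median -0.20), with the lectin Os9 at -0.90 (adjusted p = 0.000541) and Nploc4, a cofactor of the p97 ATPase, at 0.77 (adjusted p = 0.000813).

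The stress sensors and the PERK branch showed no such common direction. Of 9 stress sensors and related factors, 2 fell and 2 rose (median 0.01). Ern1, which encodes IRE1, fell by 0.61 (adjusted p = 0.00549), and Creb3l3, a transcription factor anchored in the ER of hepatocytes, rose by 0.72 (adjusted p = 0.00731). Of 19 genes of the PERK and ATF4 branch, 0 fell and 2 rose (median 0.03). They were Vldlr, a lipoprotein receptor (2.63, adjusted p = 1.69e-06), and Fgf21, a liver hormone (1.72, adjusted p = 0.000543), which are also known targets of PPARα. Atf4 itself differed by 0.46 (adjusted p = 0.107).

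Chaperones of the cytosol went the other way from those of the ER. Of 14 cytosolic heat shock proteins and partners, 8 rose and 0 fell (median 0.55). Hspb1, a small heat shock protein, rose by 2.24 (SE 0.28, adjusted p = 0.000143), and Hsp90aa1, a cytosolic relative of Hsp90b1, by 1.09 (adjusted p = 0.00087). The list's centred mean was 0.14 to 0.41 in drug-fed MycF/F,ERT2-Cre, against -0.76 to -0.16 on control diet, and -0.10 to 0.63 in drug-fed MycF/F, against -0.52 in its control.

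The secreted proteins that pass through the ER also fell. Of 31 measured genes for plasma proteins, 23 fell and 0 rose (median -1.13). F11, coagulation factor XI, fell by 2.32 (adjusted p = 4.42e-08), and Ahsg, a serum glycoprotein, by 1.92 (adjusted p = 3.47e-06). The list's centred mean was -0.48 to -0.01 in drug-fed MycF/F,ERT2-Cre, against 0.69 to 0.93 on control diet. In MycF/F it was -0.73 to -0.65 on Wy-14643, against 0.59 in the control. On Wy-14643, C8b, a complement component, was the 1 gene of these lists called between genotypes, 0.97 higher in MycF/F,ERT2-Cre (adjusted p = 0.0257, n = 3 and 2), and it was lost with a slide block (adjusted p = 0.111) or a replicate block (adjusted p = 0.285).

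**Figure D4:**
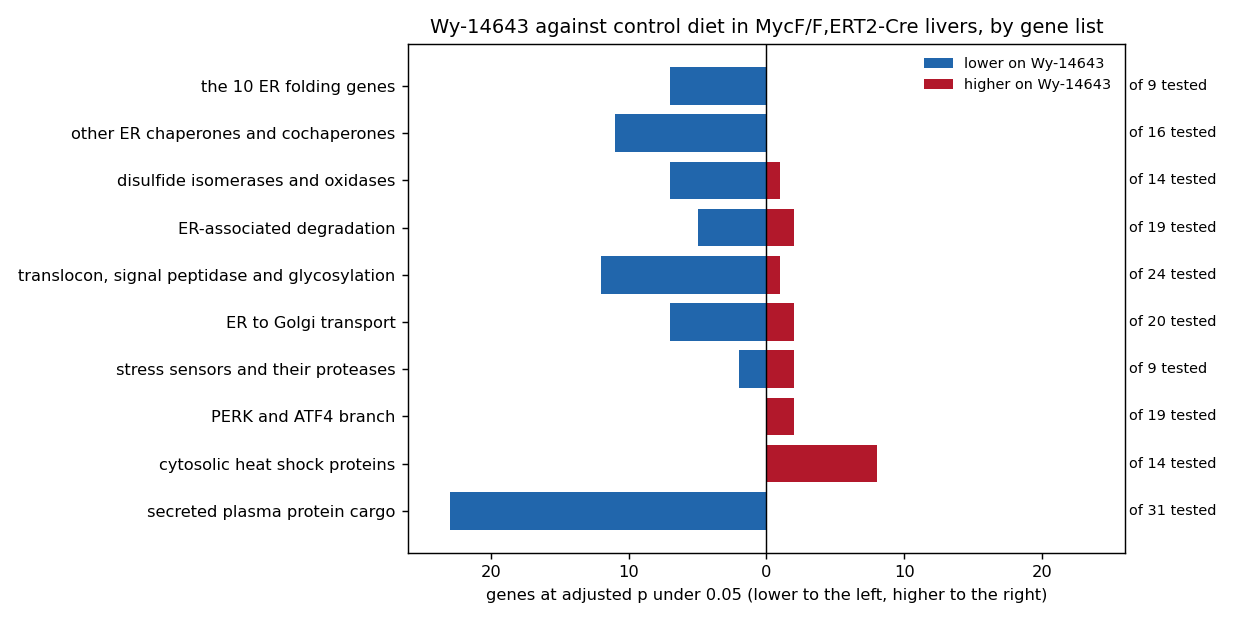
Number of genes at an adjusted p under 0.05 for Wy-14643 against control diet in MycF/F,ERT2-Cre livers (horizontal axis, lower to the left and higher to the right) in each gene list (vertical axis), marked spots left out. The lists of ER folding, translocation, degradation and transport genes have more lower than higher genes. The stress sensors have 2 lower and 2 higher, and the PERK and ATF4 branch has 0 lower and 2 higher. The cytosolic heat shock list has 8 higher and 0 lower, and the plasma protein list has 23 lower and 0 higher.

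Without control replicate 1 the counts of these lists were 10 of 16 other chaperones lower, 7 of 14 isomerases, 12 of 24 translocation and glycosylation genes and 23 of 31 plasma proteins, and 7 of 14 cytosolic heat shock proteins were higher. Without slide 1 they were 10, 8, 13 and 26 lower and 9 higher. Of all genes tested, 7.29% fell and 8.58% rose without control replicate 1, and 7.64% fell and 10.2% rose without slide 1, marked spots left out. Of the 33 other genes whose promoter window holds an ERSE, 17 were tested with marked spots left out, with a median of -0.12. Of these, 4 fell (Calr, Ero1b, Pdia6 and Syvn1, all of them ER folding or degradation genes) and 2 rose (Acacb and Acnat2, of lipid metabolism). Other ER genes among the 17 did not pass: Derl3 (-0.06, adjusted p = 0.817), Alg12 (-0.08, adjusted p = 0.67) and Canx (-0.41, adjusted p = 0.0594). With all spots 5 of these 17 fell, Canx, an ER lectin chaperone, among them (adjusted p = 0.00824), and 1 rose, Acnat2 not passing (adjusted p = 0.0561). Of all genes tested, 7.44% fell in each setting. All 4 folding genes with an ERSE fell with marked spots left out, and with all spots 3 of them did, Creld2 being the exception. Of the folding genes without one, Sdf2l1, Herpud1 and Xbp1 fell in both settings and Pdia4 with all spots, while Dnajb9 and Edem1 did not pass in either. Any part of the element in the fall was not tested.

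Markers of some liver cell types moved with the diet as well (background 7.44% lower and 8.94% higher of all genes tested, marked spots left out). The centred mean of the 6 measured hepatocyte markers ran between -0.56 and -0.15 in drug-fed MycF/F,ERT2-Cre, against 0.27 to 0.64 on control diet, marked spots left out, and 4 of the 6 fell, Alb by 1.39 (adjusted p = 1.71e-05). Kupffer cell markers were at -0.23 to -0.05 on Wy-14643, against 0.28 to 0.98, and 4 of 8 fell. Of other secretory cells, plasma and B cell markers were at -0.14 to -0.01, against -0.01 to 0.11, with 2 of 7 lower and 1 higher, and pancreatic acinar markers at -0.15 to 0.14, against -0.06 to 0.17, with 1 of 8 lower. Of the plasma cell markers, Tnfrsf17 was well above background on 0 of 12 arrays and Jchain on 9. Of stellate cell markers 3 of 6 fell, of endothelial markers 2 of 6, and of cholangiocyte markers 1 of 6 fell and 1 rose. The counts of acinar, cholangiocyte, and plasma and B cell markers are small, and nothing is read from them. Ahsg is both a hepatocyte marker and on the list of plasma proteins. The part of cell makeup in the fall of the folding genes was not tested.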

How the data were processed

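Whole-liver RNA was read on 12 Agilent arrays of 2 colours, sample in Cy5 and pooled reference in Cy3 on all. The deposited intensity values are medians of spot and local background signal, which per the file headers Agilent Feature Extraction 11.0.1.1 computed. The deposited log10 ratio of Cy5 to Cy3, corrected by that software per the file headers, served as an alternative. The arrays lie on 3 slides, each with its own scan.

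In R 4.3.3 with limma 3.58.1, signals were corrected with normexp (offset 50) and loess-normalized within arrays, and spots marked by the software as outliers were left out. Probes well above background on at least 3 arrays were kept (31846 of 41174), with the brightest probe per gene. This left 25260 genes or unnamed probes, of which 14627 had a symbol, and the shares of all genes tested are over both kinds. Symbols come from the accessions by way of RefSeq genes of GRCm38.p6. The array design names another build, and without a genome the probes were not placed. Files were read with data.table version 1.17.8. A mean for each group was fitted over the 12 arrays with lmFit and eBayes, two-sided, with Benjamini-Hochberg adjustment over all genes tested and calls at an adjusted p under 0.05. The fit was tested on simulated data. With 1 array in a group, that array is assumed to vary like the others.

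The members, gene lists and tests were chosen with earlier results of these data known. The genes named are all 10 members in each comparison, up to 4 genes per list with the smallest adjusted p in the drug comparison in MycF/F,ERT2-Cre of which some are printed, and list genes called between genotypes on Wy-14643. Likeness names 5 genes per profile. Same-numbered arrays of the 2 drug-fed groups lie on the same slides 1, 2 and 3, and their deviations correlated at r = 0.41, 0.16 and 0.15. In the comparisons with MycF/F,ERT2-Cre controls r ran between -0.07 and 0.36, an overlapping range. The labels do not say that numbers pair samples, and these values cannot settle it. Replicate number is therefore an alternative block only, and for genotype on Wy-14643 that block called none of the 10 genes. Alternatives were no background subtraction, the deposited ratio, scaling between arrays, no filter on dim probes, the mean of probes, all spots, slide and replicate blocks, compared groups only, and each array left out. The all-spot fits with slide block or with an array left out, those without slide 1, and the list counts without control replicate 1 were chosen after seeing the data.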

Additional observations from a re-analysis of the deposited data

Results flagged for a closer look

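In MycF/F,ERT2-Cre control livers, replicate 1 lay far from its group for 3 genes, by Dixon's test on the gap between an array and the nearest of the others. Of 20 groups of 4 arrays tested, 3 met it, and for independent tests chance gives about 1 in 20. The 3 are the same array read through genes that vary together, so they are not separate cases and the shares cannot be compared. For Sdf2l1, the cofactor of an Hspa5 complex, replicate 1 was at -0.62, with the other 3 arrays between 0.53 and 0.72. For Creld2, the ER stress-induced isomerase, it was at -1.31, with the others between 0.26 and 0.39. For Dnajb9, the J-domain cochaperone, it was at -1.21, with the others between -0.17 and -0.07. The Creld2 and Dnajb9 readings came from marked spots and the Sdf2l1 reading did not. With all spots, the same array's cytosolic heat shock mean was the lowest of the 12, -0.79, while its plasma protein mean of 0.70 lay within the 0.64 to 0.94 of its group. The cause was not tested.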

How the results depend on the processing

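Marked spots, the lone pooled MycF/F control array and 3 to 4 arrays a group limit these results. The 7 genes called lower in drug-fed MycF/F,ERT2-Cre became 4 to 8 when 1 array was left out, and the 7 of the all-spot fit became 2 to 8. Of these fits, the share of all genes called was counted only without control replicate 1 and with marked spots left out. Gene by gene, the deposited log ratio lost Hspa5, Hsp90b1 and Dnajc3 and gained Edem1. For the drug in MycF/F, 1 called gene became 0 with the deposited log ratio or a slide block, 3 with the replicate block, 3 without slide 1 (2 with all spots), and 0 to 2 without 1 array (0 to 1 with all spots). For genotype on Wy-14643, 0 became 1 (Sdf2l1) without slide 1, a fit chosen after seeing the data. The replicate block gave 8 calls in place of 7 in the drug comparison in MycF/F,ERT2-Cre, adding Edem1 (-0.31, adjusted p = 0.0365), and the slide block gave 7, with Edem1 in place of Hsp90b1. Neither block changed a call of the 10 genes for genotype on Wy-14643.

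Signs turned only for values that were not called, and the cause was not tested. In the drug comparison of MycF/F,ERT2-Cre, Dnajb9 was 0.22 with the mean of probes, 0.16 with all spots, and in the all-spot fit -0.13 without slide 1 and -0.11 to 0.27 without 1 array. For genotype on Wy-14643, Dnajc3 was 0.10 with the mean of probes and 0.02 with the slide block, and with 1 array left out Hsp90b1 ran between -0.38 and 0.04, Dnajb9 between -0.34 and 0.03, Xbp1 between -0.22 and 0.06 and Edem1 between -0.11 and 0.00. For the drug in MycF/F, Pdia4 was -0.06 with all spots (then 0.01 without slide 1, and -0.19 to 0.01 without 1 array), and Dnajb9 was -0.21 with the replicate block and -0.07 to 0.31 without 1 array in both settings.

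For genotype on control diet, the mean of probes gave Dnajb9 -0.23, Dnajc3 -0.03 and Edem1 -0.07, all spots gave Dnajb9 -0.16, Dnajc3 -0.07, Herpud1 -0.10 and Xbp1 -0.07, and the replicate block gave Dnajb9 -0.47, Herpud1 -0.55, Xbp1 -0.48 and Edem1 -0.13. Without 1 array Xbp1 ran between -0.05 and 0.09 and Edem1 between -0.01 and 0.15. For the difference of drug effects, the mean of probes gave Dnajb9 0.02, Dnajc3 0.13 and Edem1 0.05, all spots gave Dnajb9 0.02, Herpud1 0.07 and Xbp1 0.01, and the replicate block gave Sdf2l1 0.32, Creld2 0.16, Dnajb9 0.14, Herpud1 0.33, Xbp1 0.27 and Edem1 0.04. Without 1 array Sdf2l1 ran between -0.64 and 0.01 and Xbp1 between -0.24 and 0.04.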
